A study of Mus musculus with 16 samples.

Results

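The genes that return calcium to the sarcoplasmic reticulum of the heart muscle cell or carry it out of the cell were followed across 4 groups of mouse left ventricles. The set holds 7 genes of the 56953 in the count table, chosen by name. Atp2a1, Atp2a2 and Atp2a3 encode the calcium pumps of the reticulum (SERCA1, SERCA2 and SERCA3), Pln encodes phospholamban, Slc8a1 the sodium-calcium exchanger NCX1, and Atp2b1 and Atp2b4 the plasma membrane calcium pumps PMCA1 and PMCA4. The Bl6J mice, of both sexes, either were wild type (WT) or carried on both alleles P635L, a missense mutation of the striated-muscle splicing factor RBM20. At 4 weeks of age each was injected in a tail vein with AAV9, an adeno-associated virus, at 1e12 viral genomes, and the heart was taken 12 weeks later, at 16 weeks. The virus carried either the cDNA of Tnpo3, a receptor that imports proteins into the nucleus, or the control (Ctr) pCAG-iCre-T2A-eGFP, so that every control mouse, WT or mutant, received Cre recombinase and green fluorescent protein. The promoter of the Tnpo3 construct is not given in the sources used here. The 4 groups, named by genotype and virus, had 4 mice each with 1 library per mouse, and all 16 libraries came from bulk left ventricle. The sex of single mice is not given in the sources used here.

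A heartbeat begins when calcium leaves the sarcoplasmic reticulum and ends when calcium is removed from the cytosol. SERCA2, the cardiac pump, takes most of it back into the reticulum, phospholamban slows SERCA2 until it is phosphorylated, and small membrane peptides such as sarcolipin and DWORF bind the same pump. NCX1 removes most of the remainder by trading calcium for sodium, and PMCA pumps contribute little to this removal in the mouse heart.

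Sequencing depth ranged from 28493249 to 85922669 counts per library. Levels are given as CPM, counts scaled to library size with TMM factors, and as CPM per kb of annotated exon where genes are compared with each other. Tnpo3 stood at 41.6 to 49.4 CPM in the 8 control libraries and at 231 to 722.5 CPM in the 8 that received its cDNA, so that no library went against its virus label. A P635L transcript keeps its Rbm20 reads, so Rbm20 counts, at 167 to 333 CPM, check no genotype label. One gene, ENSMUSG00000119584, held 19.96% to 22.65% of all counts in WT Ctr 2, WT Ctr 4 and WT Tnpo3 4, against 0.703% to 5.30% in the other 13 libraries. Xist, the RNA of the inactive X chromosome, was high in 3 libraries, WT Ctr 4, WT Tnpo3 2 and WT Tnpo3 4, and in no P635L library, so the Xist-high libraries are not balanced over genotype. Several results are also given without these libraries. Cell type marker levels and calls are given with all 16 libraries only. A result shown without such a check may depend on them.

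Atp2a2 was the most abundant of the 7, at 805 ± 324 CPM per kb (SD, n = 16 libraries), and Pln followed at 405 ± 88.0. Both stood far above Slc8a1, at 7.39 ± 2.72 CPM per kb. Atp2b1 at 4.65 ± 1.04 and Atp2a3 at 4.49 ± 0.929 CPM per kb did not differ beyond their spread, and each overlapped Slc8a1. Atp2b4 reached 2.14 ± 0.464 CPM per kb, with libraries overlapping those of Atp2a3. Atp2a1, the pump of fast skeletal muscle, was lowest at 0.277 ± 0.118 CPM per kb, and its highest library (0.555) lay under the lowest library of Atp2b4 (1.66). In bulk tissue, fewer cells of a type and less RNA per cell cannot be told apart, for these levels and for every difference that follows.

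**Figure D1:**
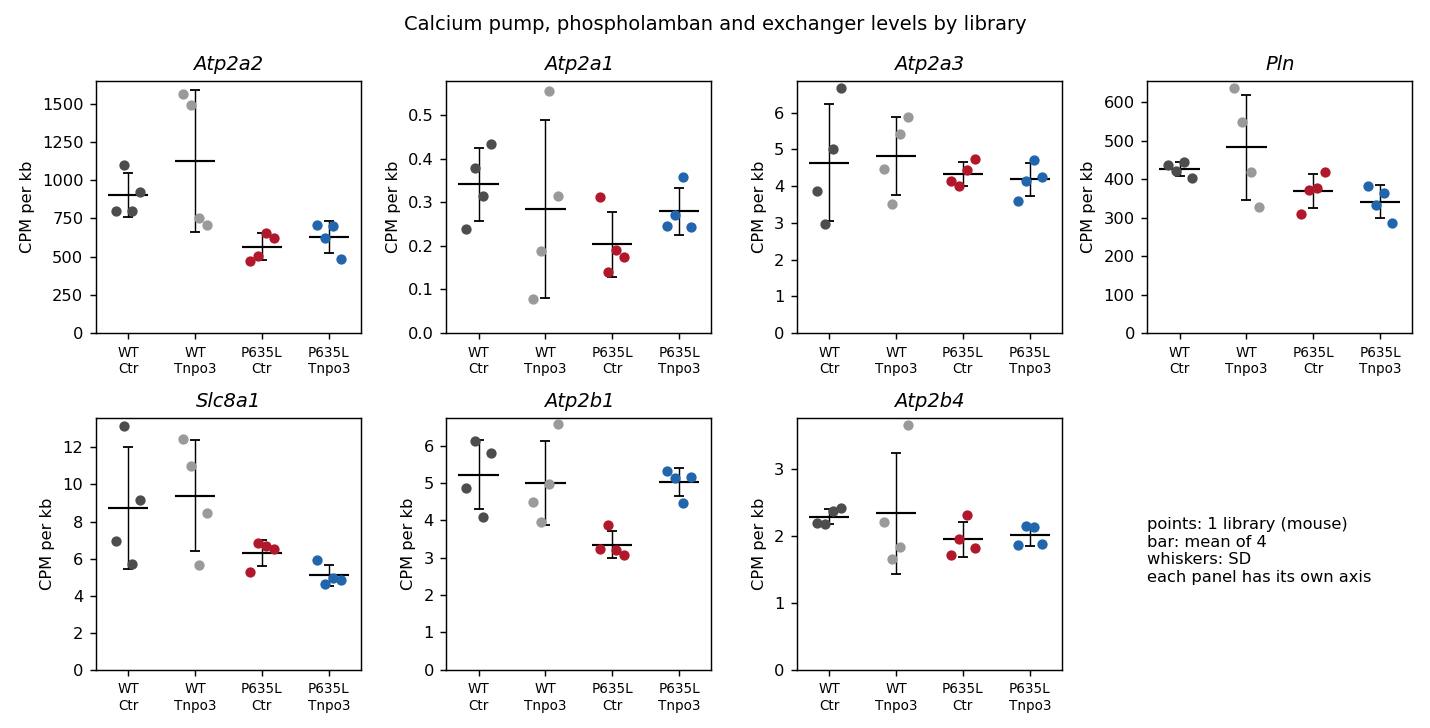
Level of each gene in CPM per kb of exon (vertical axes, each panel on its own scale from 0) in the 4 groups. Points are single libraries, bars the means of 4 and whiskers the SD. The P635L Ctr points of Atp2a2 and Atp2b1 lie under all 4 WT Ctr points, and those of Atp2b1 in P635L Tnpo3 lie above all 4 of P635L Ctr.

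The mutation and the virus were read from 1 model over all 16 libraries and 18662 genes (edgeR quasi-likelihood F test, two-sided, Benjamini-Hochberg over all genes, called at an adjusted p under 0.05). Between P635L Ctr and WT Ctr, 1 of the 7 was called, Atp2b1, which was lower, where 14.2% of all genes tested were called (7.07% higher, 7.14% lower). The 7 log2 fold changes were all negative, with a median of -0.47 beside -0.05 over all genes tested. Between P635L Tnpo3 and P635L Ctr, 1 of 7 was called, again Atp2b1 and now higher, against 3.88% of all genes (1.63% higher, 2.25% lower), and the median was 0.04 beside 0.01. Between P635L Tnpo3 and WT Ctr edgeR called none of the 7, against 3.07% of all genes (1.49% higher, 1.58% lower). There, 2 of the 7, Slc8a1 and Atp2a2, had an unadjusted p under 0.05, as had 18.3% of all genes, and DESeq2 called 1, Slc8a1. Between P635L Tnpo3 and WT Tnpo3, 1 of 7 was called, Slc8a1, which was lower, against 3.72% of all genes (1.72% higher, 2.0% lower), and the median was -0.22 beside -0.02. The virus in WT hearts gave no call, with log2 fold changes from -0.27 to 0.32, no unadjusted p under 0.05 (3.2% of all genes had one) and no DESeq2 call. The only gene called there, 0.00536% of all, was higher: it was Tnpo3. For the interaction, the difference between genotypes in the effect of the virus, edgeR called none of 7, against 0.504% of all genes (0.295% higher, 0.209% lower). It had 1 unadjusted p under 0.05, that of Atp2b1, against 12.4% of all genes, and no DESeq2 call. These comparisons share libraries, so their values are set side by side and are not independent.

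**Figure D2:**
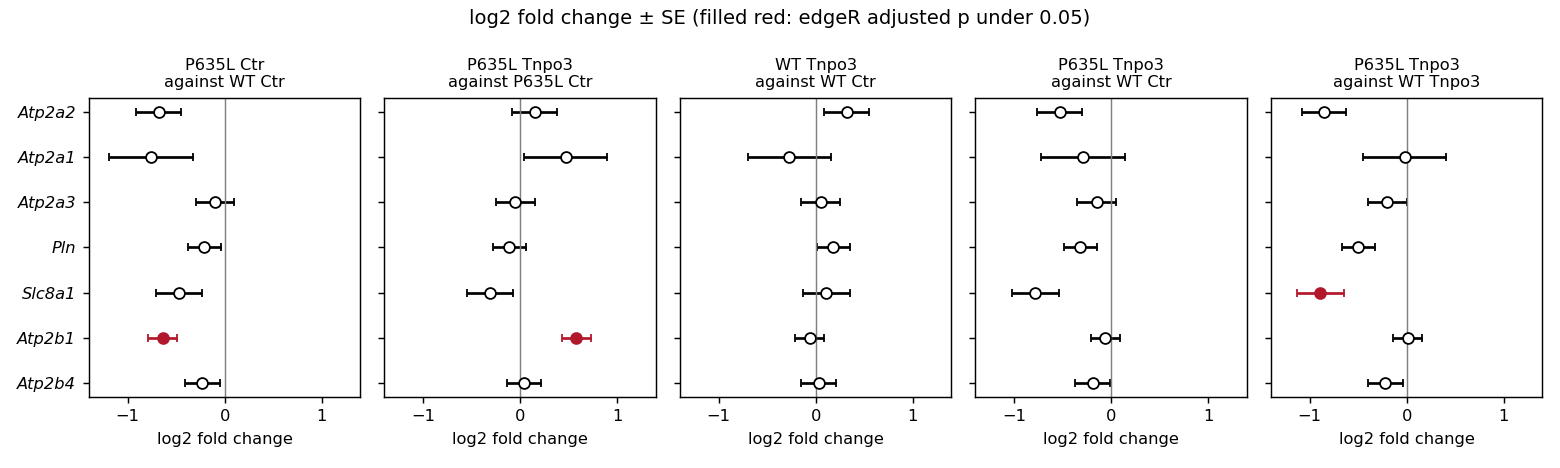
log2 fold change of each gene (horizontal axes, dots, with SE as bars) in the 5 comparisons between groups. Filled red dots passed an edgeR adjusted p under 0.05: Atp2b1 at -0.64 and 0.58, and Slc8a1 at -0.89.

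SERCA2 transcripts were lower in every mutant library than in any WT Ctr library, although the difference did not pass the test. Atp2a2 (ENSMUSG00000029467, chromosome 5, 122591576 to 122640288, minus strand, GRCm39) stood at 4847, 6673, 4831 and 5593 CPM in WT Ctr. P635L Ctr held 2868, 3079, 3995 and 3787 CPM, all under the lowest WT Ctr library. The log2 fold change was -0.68 (SE 0.23), a level 0.626 times that of WT Ctr, with an edgeR adjusted p of 0.0607. DESeq2 on the same counts gave -0.66 with an adjusted p of 0.03, and edgeR on the 8 libraries of both groups alone gave an adjusted p of 0.0125. The call was also made when WT Tnpo3 1, 3 or 4, none of them in the comparison, was left out (adjusted p 0.0426, 0.0456 and 0.029). In the authors' deposited table, the log2 ratio of WT Ctr to P635L Ctr was 0.66 with an adjusted p of 0.000275. Without the 3 libraries rich in ENSMUSG00000119584 the edgeR difference was -0.46, with an adjusted p of 0.245.

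The effect of the Tnpo3 virus on Atp2a2 in mutant hearts did not pass the test. P635L Tnpo3 held 4289, 3760, 4250 and 2940 CPM, which overlapped P635L Ctr and stayed under every WT Ctr library. Against P635L Ctr the log2 fold change was 0.15 (SE 0.23, 95% interval -0.35 to 0.66, edgeR adjusted p 0.799), and against WT Ctr it was -0.53 (SE 0.23, adjusted p 0.236). In the authors' deposited table the log2 ratio of WT Ctr to P635L Tnpo3 was 0.5, with an adjusted p of 0.0349. Of 27 alternatives run on the counts, 0 called this difference. Their log2 fold changes ranged from -0.59 to -0.31, with adjusted p-values from 0.132 to 0.61. WT Tnpo3 was split, with 9506 and 9079 CPM in its first and second libraries and 4558 and 4276 in the other two. Against this group P635L Tnpo3 stood at -0.85 (SE 0.23, edgeR adjusted p 0.0511). That comparison crossed the threshold with DESeq2 (0.00636), without the gene ENSMUSG00000119584 (0.0475), without the 3 libraries rich in it (-1.02, 0.0137) and without any one of WT Ctr 1, WT Ctr 2, WT Tnpo3 3 or WT Tnpo3 4.

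Heart muscle markers, like Atp2a2, were lower in P635L Ctr than in WT Ctr. The summed level of 8 cardiomyocyte markers was 75170 to 91800 CPM in WT Ctr, 54670 to 58110 in P635L Ctr and 55130 to 66270 in P635L Tnpo3, so that P635L Ctr did not overlap WT Ctr. Of the 8, 3 were called lower in P635L Ctr and none higher, against 7.14% and 7.07% of all genes, with a median log2 fold change of -0.55. In WT Tnpo3 against WT Ctr, markers and Atp2a2 went opposite ways, with none called. The marker sum was 62960 to 82150 CPM, with 7 of 8 log2 fold changes negative, while mean Atp2a2 was 6855 CPM against 5486. In P635L Tnpo3 against P635L Ctr, 5 of 8 markers were negative and 3 positive, with none called, while Atp2a2 was at 0.15. None of the 8 was at 0 in a group. The part of the lower marker sum of P635L Ctr in the level of Atp2a2 was not tested.

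Coverage along Atp2a2 differed between libraries. Junction reads near its 5′ end relative to those near its 3′ end gave ratios of 0.119 and 0.118 at WT Ctr positions 1 and 3 of the splicing tables, and 0.44 and 0.42 at positions 2 and 4. The highest ratio, 0.687, was at position 4 of WT Tnpo3, whose other positions ranged from 0.08 to 0.13. P635L Ctr ranged from 0.114 to 0.17 and P635L Tnpo3 from 0.155 to 0.27. Within a group the order of libraries in these tables is not stated. In WT Tnpo3, P635L Ctr and P635L Tnpo3, the 3′ reads by position ranked as did the Atp2a2 counts of replicates 1 to 4. In WT Ctr, positions 2 and 3 were exchanged in rank. If positions follow replicate numbers, the highest 3 ratios are those of WT Ctr 2, WT Ctr 4 and WT Tnpo3 4. These are the libraries rich in ENSMUSG00000119584. The part of coverage in the count differences was not tested.

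No internal exon of Atp2a2 was called. Inclusion level is the share, from 0 to 1, of length-scaled junction reads that hold an exon. Among the 25 events of SERCA2 with enough reads over the 3 tables, 5, 11 and 9 in turn, the cassette exons were included at 0.989 to 1.0 in every library. The only other type, an exon pair called mutually exclusive by rMATS, ranged from 0.202 to 0.383. Its included exon, of 83 bases, was also listed as a cassette, included at 1.0 in every WT Ctr, P635L Ctr and P635L Tnpo3 library. The level of the pair therefore cannot be read as the share of transcripts that hold this exon. rMATS holds no alternative last exons, so the SERCA2a and SERCA2b forms, which differ at the 3′ end, were not measured.

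The other pumps of the reticulum were scarce. Atp2a3 (ENSMUSG00000020788), a pump found in endothelium and blood cells among others, stood at 20.5, 15.7, 26.5 and 35.2 CPM in WT Ctr and at 21.8, 21.1, 23.5 and 25.0 CPM in P635L Ctr. P635L Tnpo3 held 19.0, 21.9, 24.9 and 22.4 CPM, and the 3 groups overlapped. Its log2 fold changes were -0.10 (SE 0.20) for the mutation, -0.05 (SE 0.20) for the virus in mutants and -0.15 (SE 0.20) for P635L Tnpo3 against WT Ctr, with edgeR adjusted p-values of 0.777, 0.931 and 0.727. Endothelial markers, summed over 6 genes, reached 2096 to 2549 CPM in WT Ctr, 2013 to 2263 in P635L Ctr and 2440 to 2625 in P635L Tnpo3. The last lay above every P635L Ctr library, although only 3 of the 6 log2 fold changes between these groups were positive. None of the 6 was called by edgeR in P635L Ctr against WT Ctr or P635L Tnpo3 against P635L Ctr.

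Atp2a1 (ENSMUSG00000030730) had 9 to 69 reads per library, or 0.832, 1.32, 1.10 and 1.51 CPM in WT Ctr and 1.08, 0.486, 0.661 and 0.603 CPM in P635L Ctr. P635L Tnpo3 held 0.854, 0.943, 1.25 and 0.848 CPM. The fold changes were -0.76 (SE 0.43), 0.47 (SE 0.43) and -0.29 (SE 0.43) on the log2 scale in the same 3 comparisons, with edgeR adjusted p-values of 0.267, 0.622 and 0.764. Some of its exon bases overlap Rabep2 on the other strand, and whether strand was used in counting is not given in the sources used here, so these few reads are uncertain. Fast skeletal muscle markers summed over 10 genes to 25.3 to 37.3 CPM in P635L Ctr, 14.8 to 24.7 in P635L Tnpo3 and 5.27 to 6.91 in WT Ctr. Of 5 that could be tested, 2 were called higher in P635L Ctr than in WT Ctr, beside 7.07% of all genes. Their defining myosin Myh4 was at 0 in all 12 of these libraries, and the part of this list in the level of Atp2a1 was not tested.

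Phospholamban showed no called change. Pln (ENSMUSG00000038583, chromosome 10, 53213763 to 53222083, plus strand) was even in WT Ctr, at 1202, 1164, 1226 and 1114 CPM. P635L Ctr held 852, 1026, 1041 and 1154 CPM, overlapping WT Ctr in its highest library. P635L Tnpo3 held 1056, 919, 1005 and 789.9 CPM, all under WT Ctr. WT Tnpo3 ranged more widely, at 1759, 1510, 1156 and 903 CPM.

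On the log2 scale Pln stood at -0.21 (SE 0.17) in P635L Ctr against WT Ctr and at -0.11 (SE 0.17) in P635L Tnpo3 against P635L Ctr, with edgeR adjusted p-values of 0.441 and 0.791. Against WT Ctr, P635L Tnpo3 was at -0.32 (SE 0.17, adjusted p 0.318), and against WT Tnpo3 at -0.50 (SE 0.17, adjusted p 0.1). The last comparison passed with DESeq2 (adjusted p 0.0385), without WT Tnpo3 4 (-0.65, 0.0134) and without the 3 libraries rich in ENSMUSG00000119584 (-0.65, 0.0128). Exons of Pln overlap those of Gm47644 and, over fewer bases, Cep85l on the other strand.

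Pln RNA was called once in splicing, in an uncommon transcript. A 127-base exon at chromosome 10, 53218078 to 53218204, lies between the first exon and a last exon with 3 alternative starts. With the start that drew fewest reads, it was included at 0.723, 0.611, 0.684 and 0.626 in WT Ctr and at 0.693, 0.741, 0.802 and 0.824 in P635L Tnpo3, groups that overlap. The difference was 0.104 with an rMATS FDR of 0.0268, and an exact permutation p of 0.0571. P635L Ctr, at 0.691, 0.721, 0.642 and 0.637, was not called against WT Ctr (difference 0.012, FDR 1.0). Between the mutant groups the difference was 0.092, with an exact permutation p of 0.0571 and an adjusted p of 0.998 over 29393 events.

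That transcript was a small share of Pln. With the main start of the last exon, which drew 12819.75 reads per WT Ctr library on average against 300.5 for the rare one, the exon was included at 0.017 to 0.021 in WT Ctr, 0.014 to 0.016 in P635L Ctr and 0.022 to 0.024 in P635L Tnpo3. This event was chosen after its values were seen. The 2 mutant groups did not overlap (exact permutation p 0.0286, the smallest that 4 against 4 can give, reached by 3.45% of events compared, adjusted p 0.828), and neither rMATS FDR against WT Ctr passed (0.144 and 0.143).

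SERCA regulators beyond phospholamban included the most changed gene of all those listed. Of 18 regulators, listed with earlier results of these data known, 17 could be tested. Their counts are therefore a description. In P635L Ctr against WT Ctr 4 were called lower and none higher, beside 7.14% and 7.07% of all genes. Of the 17 log2 fold changes 10 were negative and 7 positive, and their median of -0.03 lay beside -0.05 over all genes. DWORF, encoded by Strit1, is a small peptide that displaces phospholamban from SERCA. Strit1 (ENSMUSG00000103476, called Gm34302 in some annotations) stood at 54.3, 67.2, 39.1 and 35.9 CPM in WT Ctr. P635L Ctr held 0.115, 0.0211, 0.1825 and 0.0188 CPM, which are 5, 2, 8 and 1 reads.

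Strit1 was nearly undetected in P635L Ctr, at 16 reads summed over 4 libraries against 5796 in WT Ctr. Scaled for depth this was 693-fold lower (exact 95% interval 426 to 1210, counting error only), and the fitted log2 fold change was -9.40 (edgeR adjusted p 2.63e-06). P635L Tnpo3 held 2.03, 3.95, 12.0 and 13.1 CPM, above every P635L Ctr library and under every WT Ctr library. Its 1580 reads were 119-fold more than in P635L Ctr (exact 95% interval 73 to 209, counting error only), with a fitted log2 fold change of 6.74 (edgeR adjusted p 0.000338). P635L Ctr 3 held 8 of the 16 reads, and without it the fitted values were -10.07 and 7.42, and 7.49 for the interaction of virus and genotype. When each single library was left out in turn, these 3 ranged from -10.07 to -8.86, 6.25 to 7.42 and 6.29 to 7.49. Against WT Ctr the reads of P635L Tnpo3 were 5.83-fold fewer (exact 95% interval 5.51 to 6.16, counting error only). The spread between mice, 2.03 to 13.1 CPM in P635L Tnpo3, is not part of any of these intervals. The fitted log2 fold change of P635L Tnpo3 against WT Ctr was -2.65, with an edgeR adjusted p of 0.00913. That last call was lost with the 8 libraries of both groups alone (adjusted p 0.0763) and without the 3 libraries rich in ENSMUSG00000119584 (-2.54, 0.0718). In WT hearts the virus left Strit1 at 56.8, 38.7, 59.2 and 32.5 CPM, within the WT Ctr range apart from the lowest library. The interaction was 6.81 on the log2 scale (adjusted p 0.00525), and 6.60 with an adjusted p of 0.0526 without the 3 Xist-high libraries. Per kb of exon, Strit1 reached 202 CPM in WT Ctr on average, beside 426 for Pln and 902 for Atp2a2.

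Hrc and Calr, calcium-binding proteins of the reticulum lumen, were lower in P635L Ctr. Hrc stood at 1254, 1696, 1426 and 1360 CPM in WT Ctr and at 647, 664, 787 and 680.3 in P635L Ctr, and its log2 fold change was -1.05 (SE 0.16, edgeR adjusted p 0.000187). P635L Tnpo3 held 836 to 1168 CPM, between both groups without overlap, and was not called against P635L Ctr (adjusted p 0.107) or WT Ctr (0.053). Calr fell from 416 to 552 CPM in WT Ctr to 269 to 313 in P635L Ctr, by 0.70 on the log2 scale (SE 0.12, adjusted p 0.000516), and was at 365 to 432 CPM in P635L Tnpo3 (adjusted p 0.0586 against P635L Ctr). Ppp1r1a, a protein phosphatase inhibitor, was at 2.17 ± 0.858 CPM in WT Ctr and 0.575 ± 0.158 in P635L Ctr (SD, n = 4 each). On the log2 scale it was at -1.91 (SE 0.32) in P635L Ctr and -1.53 (SE 0.32) in P635L Tnpo3 against WT Ctr, with edgeR adjusted p-values of 0.000534 and 0.0113.

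Against WT Tnpo3, where 2.0% of all genes were called lower, 2 of the 17 tested regulators were called lower in P635L Tnpo3. They were Strit1, at -2.59 (edgeR adjusted p 0.0105), and Ppp1r3a, a subunit that directs protein phosphatase 1, at -0.58 (adjusted p 0.02), a call lost without P635L Tnpo3 1 or 4 or WT Tnpo3 1 or 2 (adjusted p up to 0.0873), with the Xist covariate (0.0735), with both groups alone (0.0614) and without the Xist-high libraries (0.0649). That of Strit1 was also lost with both groups alone (0.067). Sln, the atrial peptide sarcolipin, was too low to test, with at most 1.031 CPM in any library and a value of 0 in 10 of 16. Atrial markers, 6 genes including Sln, summed to 188 to 455 CPM in WT Ctr, 5166 to 9831 in P635L Ctr and 944 to 4530 in P635L Tnpo3. Only 3 of the 6 could be tested. In P635L Ctr against WT Ctr 1 of them was called higher and 1 lower, beside 7.07% and 7.14% of all genes. Bmp10 was at 0 in all 4 P635L Ctr libraries, so the sum does not describe every gene of the list. Mrln, the skeletal muscle peptide myoregulin, ranged from 0.529 to 2.20 CPM with no call. Arln, encoding the peptide another-regulin, was at 49.55 to 75.5 CPM in WT Ctr and 76.4 to 92.3 in P635L Ctr, not overlapping and not called (0.41, edgeR adjusted p 0.0642). It was chosen after its values were seen.

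**Figure D3:**
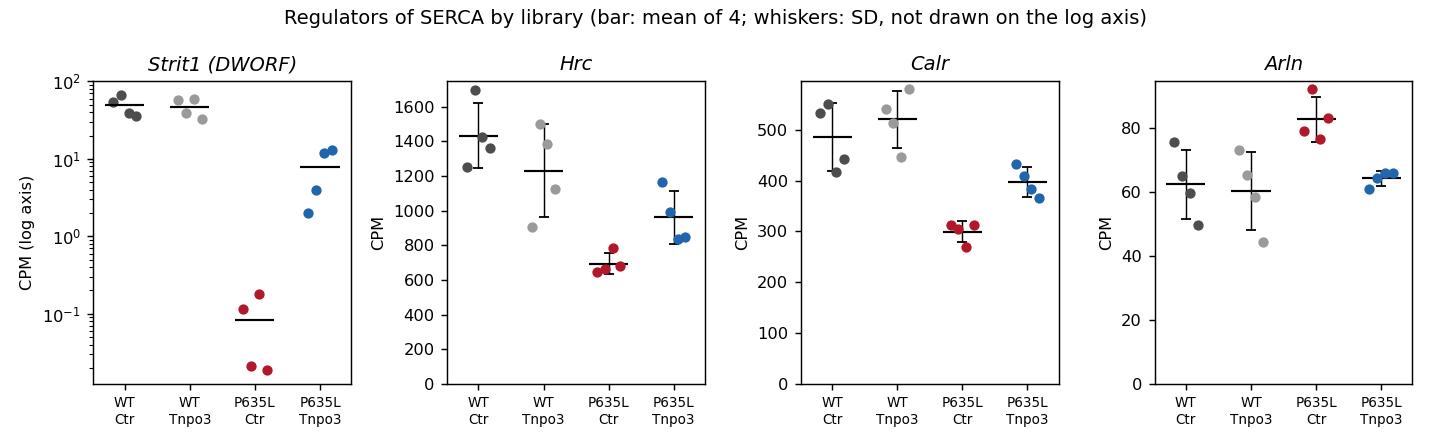
CPM of 4 genes that act on or beside SERCA in the 4 groups, with points for libraries and bars for means of 4. Whiskers are the SD, not drawn for Strit1, whose axis is logarithmic. Strit1 is under 1 CPM in all 4 P635L Ctr libraries and at 2.03 to 13.1 in P635L Tnpo3, while Hrc and Calr of P635L Ctr lie under WT Ctr.

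A ratio of 2 genes within a library does not depend on library scaling. Phospholamban relative to its pump, as Pln to Atp2a2 in counts per kb, was 0.547, 0.385, 0.559 and 0.439 in WT Ctr. In P635L Ctr it was 0.654, 0.734, 0.574 and 0.671, above every WT Ctr library. The geometric means were 0.477 and 0.656, a log2 difference of 0.461 (exact permutation p 0.0286, Benjamini-Hochberg 0.114 over 8 ratio comparisons). In P635L Tnpo3 the ratio was 0.543, 0.539, 0.521 and 0.592, a log2 difference of -0.26 from P635L Ctr (exact permutation p 0.0571, adjusted 0.152). No ratio comparison passed after adjustment. Without the 3 libraries rich in ENSMUSG00000119584, the difference between P635L Ctr and WT Ctr was 0.25, with an exact permutation p of 0.133.

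Slc8a1 relative to Atp2a2 differed between the mutant groups before adjustment. P635L Ctr held 0.0112, 0.0135, 0.0101 and 0.01045, and P635L Tnpo3 0.00839, 0.0075, 0.00706 and 0.0101. These values do not overlap, and the log2 difference was -0.46 (exact permutation p 0.0286, adjusted 0.114). In WT Ctr the ratio ranged from 0.00717 to 0.0120, overlapping both mutant groups.

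**Figure D4:**
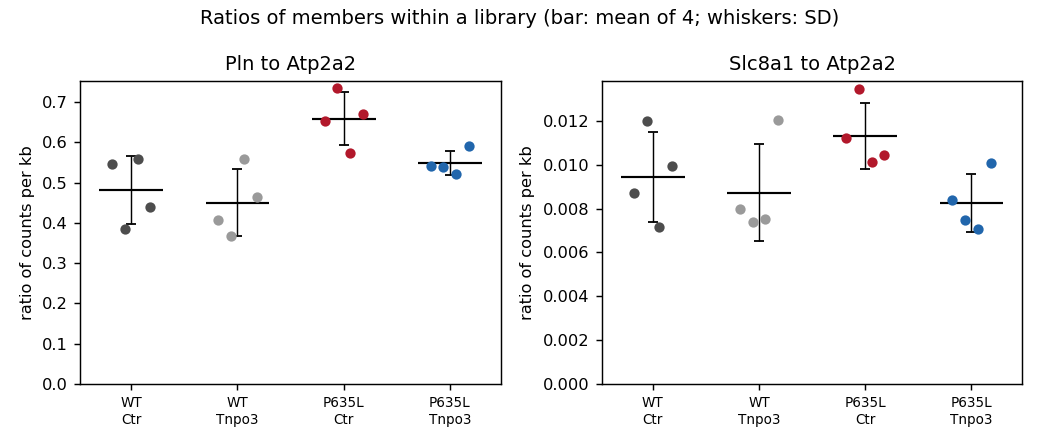
Ratio of counts per kb within each library (vertical axes from 0) for Pln to Atp2a2 and Slc8a1 to Atp2a2 in the 4 groups, with points for libraries, bars for means of 4 and whiskers for the SD. The P635L Ctr points of the first ratio, 0.574 to 0.734, lie above all WT Ctr points.

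NCX1 transcripts had their lowest group mean in mutants that received Tnpo3. Slc8a1 (ENSMUSG00000054640, chromosome 17, 81680534 to 82045806, minus strand) was uneven in WT Ctr, at 130.6, 248, 107.1 and 172 CPM, and in WT Tnpo3, at 234, 207, 106 and 160 CPM. P635L Ctr was even, at 99.5, 128, 125 and 122 CPM, within the range of WT Ctr except for its lowest library. P635L Tnpo3 held 111, 87.2, 92.8 and 91.55 CPM, where a single library exceeded the lowest of either WT group.

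Only the comparison of both Tnpo3 groups was called for Slc8a1. P635L Tnpo3 stood at -0.89 (SE 0.24) on the log2 scale against WT Tnpo3, 0.541 times its level, with an edgeR adjusted p of 0.0468. This call held in 11 of 27 alternatives. It was lost without any one of the 8 P635L libraries, WT Ctr 4, WT Tnpo3 1 or WT Tnpo3 2, with log2 fold changes from -0.97 to -0.72 and adjusted p-values up to 0.169. The call was also lost without the Xist-high libraries (-0.82, adjusted p 0.184), with the Xist covariate (0.121) and with no low-count filter (0.121). Upper-quartile factors (0.0507) and a replicate block (0.0543) lost it as well. Against WT Ctr, P635L Tnpo3 stood at -0.78 (SE 0.24, adjusted p 0.0855), at -0.76 with DESeq2 (adjusted p 0.0286), and past the threshold without WT Ctr 3 (-0.94, 0.0335) or WT Tnpo3 3 (0.0448). The other 24 of 27 alternatives did not pass. Over all 27 the log2 fold change ranged from -0.94 to -0.27, with adjusted p-values up to 0.641. In the authors' deposited table the log2 ratio of WT Ctr to P635L Tnpo3 was 0.75, with an adjusted p of 0.0224. P635L Ctr against WT Ctr was -0.47 (SE 0.24, edgeR adjusted p 0.205), and the sign turned, to 0.04, without the 3 libraries rich in ENSMUSG00000119584. P635L Tnpo3 against P635L Ctr was -0.31 (SE 0.24, adjusted p 0.53), called with the 8 mutant libraries alone (-0.31, adjusted p 0.0442).

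The cytosolic loop of NCX1 is encoded in part by small cassette exons, lettered C to F, that tissues combine in different ways. Those on which the called Slc8a1 event turns are shown from the GENCODE M21 transcripts on GRCm38, minus strand, with the exon counted as included in capitals. All 3 are coding and their lengths are multiples of 3.
Slc8a1 exon D: gtggcttcacattaacag
Slc8a1 exon E: GAAAAGAGATGTATG
Slc8a1 exon F: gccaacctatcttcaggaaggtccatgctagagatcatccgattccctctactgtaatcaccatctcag
They lie at chr17:81441773-81441790, chr17:81441652-81441666 and chr17:81437745-81437813 on that build, and were matched by order and length to the deposited events on GRCm39, where exon E runs from 81749081 to 81749095 on chromosome 17.

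The called event sets junction reads at exon E against those at exon F, which rMATS treats as mutually exclusive. The deposited entry gives no position for its second exon, and F was taken because the reads equal those of the F cassette in all 8 libraries. The E side held 0.216, 0.225, 0.264 and 0.266 in WT Ctr and 0.181, 0.141, 0.048 and 0.099 in P635L Tnpo3, without overlap. The difference was -0.126 with an rMATS FDR of 0.0355 and an exact permutation p of 0.0286. The E side had few reads, 5, 15, 2 and 22 in WT Ctr and 8, 4, 2 and 3 in P635L Tnpo3. Junctions that mark a transcript with only one of the exons were rarer still: E joined straight to the exon after F in 0 reads of WT Ctr and in 0, 2, 1 and 0 of P635L Tnpo3, and D joined straight to F in 0, 5, 0 and 5 reads of WT Ctr and 0 of P635L Tnpo3. Both sides are therefore mostly junctions that transcripts with both exons share, and the called value cannot be read as a share of either form. Most transcripts carried both exons, with E included next to F at 0.966 to 1.0 in WT Ctr and 1.0 in all P635L Tnpo3 libraries, and at 0.986 to 1.0 in P635L Ctr. The table of WT Tnpo3 lists exon E in a mutually exclusive event with another downstream exon, at 0.042 to 0.156 in WT Tnpo3 and 0.066 to 0.237 in WT Ctr, not called (FDR 0.204).

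Splicing calls for the 7 genes were 0 of 21 events with enough reads for P635L Ctr, 2 of 31 for P635L Tnpo3 and 0 of 27 for WT Tnpo3, each against WT Ctr. Calls required an rMATS FDR under 0.05, inclusion that differed by 0.1 or more, and an average of 10 or more reads per library in each group. By that rule 2.52%, 2.12% and 0.941% of all events were called in the same 3 tables, and events of 1 gene share junctions. The 2 calls are those of Pln and Slc8a1, and 1 of them, Slc8a1, had an exact permutation p under 0.05.

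**Figure D5:**
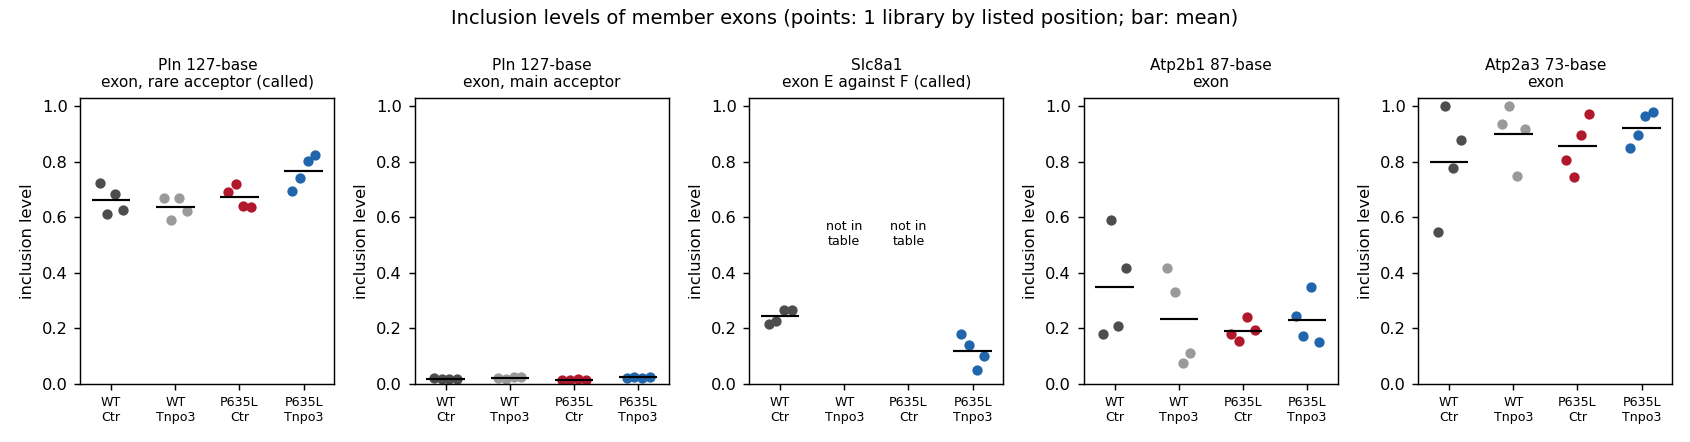
Inclusion level, from 0 to 1 (vertical axes), of 5 events in the 4 groups, with points for libraries by listed position and bars for means. The rare-acceptor event of Pln and the Slc8a1 exon E event were called for P635L Tnpo3 against WT Ctr, and the P635L Tnpo3 points of the latter, 0.048 to 0.181, lie under all WT Ctr points.

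All 8 listed genes on the sodium side of the exchanger were tested in P635L Ctr against WT Ctr. The median log2 fold change was -0.17 beside -0.05 over all genes, with 6 values negative and 2 positive. Beside 7.14% of all genes called lower and 7.07% higher, 2 of the 8 were called lower and none higher. One of them, Ank2, encodes the anchor protein ankyrin-B, which holds NCX1 in place at the membrane. It stood at -0.49 on the log2 scale (edgeR adjusted p 0.0189), but at -0.24 (0.222) without the libraries rich in ENSMUSG00000119584. Its call was also lost without WT Ctr 2 or 4, P635L Ctr 1, 2 or 4 (up to 0.0807) or the Xist-high libraries (0.0698), and with both groups alone (0.059).

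PMCA1 was the one member with called changes in both directions. Atp2b1 (ENSMUSG00000019943, chromosome 10, 98750268 to 98862005, plus strand) stood at 74.1, 93.35, 62.4 and 88.15 CPM in WT Ctr and at 49.1, 59.05, 48.7 and 46.7 CPM in P635L Ctr. The groups did not overlap, and the log2 fold change was -0.64 (SE 0.15), a level 0.6405 times that of WT Ctr, with an edgeR adjusted p of 0.00727. P635L Tnpo3 held 80.9, 78.2, 68.05 and 78.4 CPM, above every P635L Ctr library and within the range of WT Ctr. Against P635L Ctr this was 0.58 on the log2 scale (SE 0.15), 1.5 times its level, with an adjusted p of 0.0365, and against WT Ctr it was -0.06 (SE 0.15, 95% interval -0.39 to 0.27, adjusted p 0.875).

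Endothelial and macrophage marker sums were also higher in P635L Tnpo3 than in every P635L Ctr library. Gene by gene, 3 endothelial log2 fold changes were positive and 3 negative, all 5 macrophage ones were positive, and none was called. The part of these cell types in the level of Atp2b1 was not tested. WT Tnpo3 held 68.4, 60.3, 75.8 and 99.96 CPM of Atp2b1, overlapping WT Ctr. The interaction was 0.65 (SE 0.21, edgeR adjusted p 0.216), so a different effect of the virus between genotypes was not shown, and it passed only without WT Tnpo3 4 (0.81, adjusted p 0.0435). The call for the mutation held in 26 of 27 alternatives and was lost without the 3 libraries rich in ENSMUSG00000119584 (-0.38, adjusted p 0.0588). That for the virus held in 20 of 27, and was lost without P635L Ctr 1, 3 or 4 or any 1 of the P635L Tnpo3 libraries, with log2 fold changes of 0.55 to 0.64 and adjusted p-values up to 0.123. In the authors' deposited table the log2 ratio of WT Ctr to P635L Ctr was 0.63, with an adjusted p of 0.000673.

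An exon near the 3′ end of Atp2b1, at splice site C, decides which carboxy-terminal regulatory tail the pump carries. The exon is shown whole, in the GENCODE M21 transcript at chr10:99019278-99019431 on GRCm38, plus strand, with the first 87 bases, which the shorter form keeps, in capitals.
Atp2b1 site C: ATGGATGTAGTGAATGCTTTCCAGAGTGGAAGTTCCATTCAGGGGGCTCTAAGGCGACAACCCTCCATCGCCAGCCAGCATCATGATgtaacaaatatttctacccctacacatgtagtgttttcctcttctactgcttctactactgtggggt
The 87-base form is a multiple of 3 and the 154-base form is not. In the deposited events, on GRCm39, the 87-base form was included at 0.179, 0.589, 0.209 and 0.416 in WT Ctr and at 0.179, 0.154, 0.241 and 0.193 in P635L Ctr, a difference of -0.157 that was not called (FDR 0.117). P635L Tnpo3 held 0.244, 0.172, 0.349 and 0.151, and WT Tnpo3 0.416, 0.33, 0.073 and 0.109. All 8 mutant levels lay within the range of the 8 WT libraries. This event was chosen after its values were seen. The Atp2b1 exon with most reads, of 198 bases, is listed for WT Tnpo3 only, at 0.939 to 1.0 against 1.0 in WT Ctr, and was not called (FDR 0.334).

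PMCA4 was called in no comparison. Atp2b4 (ENSMUSG00000026463) stood at 26.9, 26.6, 28.9 and 29.5 CPM in WT Ctr and at 20.9, 23.9, 28.3 and 22.3 CPM in P635L Ctr. P635L Tnpo3 held 22.9, 26.3, 26.1 and 22.9 CPM, all under WT Ctr. The log2 fold changes were -0.23 (SE 0.18) for the mutation, 0.04 (SE 0.18) for the virus in mutants and -0.19 (SE 0.18) for P635L Tnpo3 against WT Ctr, with edgeR adjusted p-values of 0.433, 0.936 and 0.621. WT Tnpo3 4 stood alone at 44.7 CPM, where the other WT Tnpo3 libraries held 20.3 to 26.9. Smooth muscle, in which PMCA4 is prominent, had marker sums of 296 to 430.3 CPM in WT Ctr and 296 to 370.5 CPM in P635L Ctr.

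Splicing of Atp2a3 gave no call either. Its 73-base exon near the 3′ end was included at 0.546, 1.0, 0.777 and 0.88 in WT Ctr, at 0.805, 0.744, 0.898 and 0.973 in P635L Ctr and at 0.85, 0.897, 0.964 and 0.978 in P635L Tnpo3. An alternative donor of that exon passed the FDR in P635L Ctr (0.02855) with a difference of -0.078, under the 0.1 required, and is named after its values were seen. The Atp2b4 exon with most reads, of 181 bases, was included at 0.053 to 0.227 in WT Ctr, 0.0 to 0.22 in P635L Ctr and 0.043 to 0.182 in P635L Tnpo3, and no Atp2a1 event had enough reads.

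Other calcium pumps, exchangers and their partners moved both ways. Of 16 listed genes 13 were tested. In P635L Ctr against WT Ctr 7 log2 fold changes were positive and 6 negative, with a median of 0.02. Of the 13, 3 were called higher and 2 lower, beside 7.07% and 7.14% of all genes. Slc24a2, a potassium-dependent sodium-calcium exchanger, stood at 0.667 ± 0.476 CPM in WT Ctr and 4.80 ± 1.11 in P635L Ctr (SD, n = 4 each), 2.87 higher on the log2 scale (SE 0.41) with an edgeR adjusted p of 0.00011. It was at 2.34 ± 0.791 CPM in P635L Tnpo3, 1.84 above WT Ctr (adjusted p 0.017) and 1.91 above WT Tnpo3 (adjusted p 0.0128) on the log2 scale, calls lost without P635L Tnpo3 4 (0.0736 and 0.0574) and, for the first, without WT Ctr 4 (0.0544). Without the Xist-high libraries they stood at 0.0525 and 0.123, the first at 0.0586 with both groups alone, and the second at 0.0644 with the Xist covariate. Without WT Ctr 2 the differences from WT Ctr were larger, 3.46 for P635L Ctr and 2.43 for P635L Tnpo3. Atp2b3, a plasma membrane pump best known from brain, was at 0.349 ± 0.140 and 1.68 ± 0.438 CPM in WT Ctr and P635L Ctr, 2.26 apart on the log2 scale (SE 0.47, edgeR adjusted p 0.00312).

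Differences of partner proteins were small. Nptn (0.39, edgeR adjusted p 0.049) was higher in P635L Ctr and Bsg (-0.37, adjusted p 0.0427) was lower. They encode neuroplastin and basigin, which accompany PMCA pumps to the membrane. Bsg was higher in P635L Tnpo3 than in P635L Ctr (0.43, adjusted p 0.046), at 1701 ± 65.1 CPM against 1260 ± 103 (SD, n = 4 each). These 3 calls held in 13, 12 and 14 of 27 alternatives, in the order named, and were lost without most single libraries of their groups, with adjusted p-values up to 0.194 over all alternatives.

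Markers of other cell types differed between groups too. Fibroblast markers, 6 genes, summed to 837 to 1368 CPM in WT Ctr, 1277 to 1918 in P635L Ctr and 924 to 1304 in P635L Tnpo3. In P635L Ctr 5 of 6 were called higher than in WT Ctr, beside 7.07% of all genes. In P635L Tnpo3, 4 of the 6 were called lower than in P635L Ctr, beside 2.25% of all genes. Macrophage markers summed to 138 to 424 CPM in WT Ctr, 119 to 158.5 in P635L Ctr and 174 to 285 in P635L Tnpo3, without overlap between the mutant groups. Lymphocyte markers summed to 1.86 to 30.0, 4.465 to 7.82 and 3.51 to 6.35 CPM in the same order, red cell and platelet markers to 251 to 1027, 610.3 to 1104 and 906 to 1468, and fat markers to 0.932 to 4.64, 0.207 to 1.66 and 0.462 to 1.66. Of these last 4 lists, 1 of 5 macrophage genes was called lower in P635L Ctr than in WT Ctr, beside 7.14% of all genes. In P635L Tnpo3, 1 of 6 red cell and platelet genes was called higher than in P635L Ctr, beside 1.63% of all genes. The part of these cell types in the member levels was not tested.

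Across the 16 libraries Atp2a2 followed Pln (Pearson r = 0.883) and Slc8a1 (0.814), and Pln followed Slc8a1 (0.679), as a description over libraries that share groups and depth. Atp2b1 followed none of these 3, with r between -0.102 and 0.248. The genes most like Atp2a2 among 12490 compared were Rrn3 (0.978), Tmem65 (0.973) and Rprd1a (0.973). For Pln they were Cse1l (0.969), Mgat4b (0.953) and Cs (0.951), for Slc8a1 Kif16b (0.96), Dusp18 (0.96) and Lman2 (0.951), and for Atp2b1 Gm26782 (0.948), Top1 (0.945) and Ankrd17 (0.928). Likeness was weaker for Atp2a3, at most 0.867 with Mxd1, and for Atp2b4, at most 0.907 with Hmbox1, and Atp2a1 was too low to compare.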

How the data were processed

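Raw counts per gene were made by the authors with featureCounts 2.0.6 after alignment with STAR 2.7.9a to GRCm39, per the submitters' processing notes. The authors' deposited tables give log2 fold changes (WT Ctr over the other group) and adjusted p-values from DESeq2, whose version is not given in the sources used here. The authors' rMATS tables, of an unstated version, hold, as deposited, junction counts, inclusion levels, p-values, FDR and an inclusion difference, read as a score, for 4 libraries per group. The gene tests used edgeR 4.0.16 under R 4.3.3 (robust quasi-likelihood, TMM, filterByExpr, 12 residual degrees of freedom), and DESeq2 1.42.0 was an alternative. Exact permutation tests covered all 70 assignments of 8 libraries, two-sided. No 2 libraries of a group agreed within sampling noise. Counts of 18662 genes were simulated with the same means in all groups, except for 200 genes changed in P635L Ctr. There, over 18241 genes tested for P635L Ctr against WT Ctr, edgeR recovered 62.1% of 2-fold and 19.4% of 1.5-fold changes. Of its calls 4.67% were false. These shares hold for that setting only, since 14.2% of genes were called in the data and the simulation held no libraries that stand apart. The members and lists were chosen with earlier results of these data known. Counts of members or listed genes beside the share of all genes are therefore descriptions. Named genes are the 7 members, listed genes called in a contrast, with the exception at the end, and Sln, Mrln and Strit1. Named events are the called ones and otherwise the deepest of a gene. Arln and events said to be chosen after their values were seen fall outside these rules. Symbols of 2 genes came from RefSeq synonyms. Some listed genes counted in the list totals are not reported here by name.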

Additional observations from a re-analysis of the deposited data

Results flagged for a closer look

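The log2 ratio of Slc8a1 to Atp2a2 in WT Tnpo3 4 was -6.373, above the other 3 libraries of that group, which ranged from -7.083 to -6.971. It was 1 of 40 groups of 4 libraries examined for a library far from the rest, and chance alone gives about 1 in 20. The same library was among those rich in ENSMUSG00000119584. Whether that bears on the ratio was not tested.

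The effect of the Tnpo3 virus on Strit1 differed between genotypes, with an interaction of 6.81 on the log2 scale (edgeR adjusted p 0.00525). In P635L hearts it was higher with the virus in 4 of 4 libraries, whereas the WT libraries of both viruses overlapped.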

How the results depend on the processing

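For P635L Ctr against WT Ctr, 1 member was called, and 2 with DESeq2, 2 with the groups of the contrast alone, 0 without the 3 libraries rich in ENSMUSG00000119584 and 1 to 2 when single libraries were left out. For P635L Tnpo3 against P635L Ctr these were 2 with those groups alone and 0 to 1 without single libraries, and for P635L Tnpo3 against WT Ctr 1 with DESeq2 and 0 to 1. For P635L Tnpo3 against WT Tnpo3 the count was 3 with DESeq2, 2 with that gene left out, 3 without the rich libraries, 0 to 3 without single libraries, and 0 with an Xist covariate, without the Xist-high libraries, with no low-count filter and with upper-quartile factors. The interaction gave 0 to 1 without single libraries. Called events for P635L Tnpo3 against WT Ctr were 0 at a difference of 0.2 and 1 by exact permutation.

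Signs turned for small differences. Without the rich libraries, Slc8a1 was 0.04 for the mutation, and for P635L Tnpo3 against WT Ctr Atp2a1 was 0.04, Atp2b1 0.20, the log2 ratio of Pln to Atp2a2 -0.01 and that of Slc8a1 to Atp2a2 0.05. Without the Xist-high libraries Atp2a3 was 0.16 for the mutation and, for P635L Tnpo3 against WT Ctr, Atp2a3 was 0.11 and Atp2b1 0.04. Leaving out single libraries gave -0.24 to 0.13 for Atp2a3 and the mutation, -0.11 to 0.01 for Atp2a3 and the virus in mutants, -0.29 to 0.08 and -0.16 to 0.05 for Atp2a3 and Atp2b1 in P635L Tnpo3 against WT Ctr, and -0.29 to 0.003 for the Slc8a1 to Atp2a2 ratio in WT Tnpo3 against WT Ctr. The causes were not tested.

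Replicate numbers did not pair the samples, since 6 of 24 same-numbered pairs correlated above 0.1 (-0.257 to 0.552) and 3 of 16 libraries were closest to their own number. With a replicate block, 0 members were called for P635L Tnpo3 against WT Tnpo3, where Slc8a1 was at -0.84 (edgeR adjusted p 0.0543).

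Over all genes, calls for P635L Tnpo3 against P635L Ctr were 724, and 2846 with those groups alone, 1368 with DESeq2, 1482 without the rich libraries and 1282 without the Xist-high ones. For P635L Tnpo3 against WT Ctr they were 573, and 1118 with DESeq2 and 319 without the rich libraries. Against WT Tnpo3 they were 694, and 1439 with DESeq2, 1887 without the rich libraries, 462 with those groups alone, 386 without the Xist-high libraries and 376 with the Xist covariate. The interaction had 94, and 403 with DESeq2, 322 without the rich libraries, 146 with no filter and 54 without the Xist-high ones. WT Tnpo3 against WT Ctr had 1, and 3 with DESeq2 and 0 without either set of libraries. Leaving out single libraries gave 282 to 1022, 282 to 736, 280 to 1220, 52 to 221 and 1 to 3 calls in these comparisons, in the order given.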
